A study of Homo sapiens with 18 samples.

Results

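Cells take up and expel copper through a small set of carriers, and platinum drugs such as oxaliplatin (OXA) have been linked to the same proteins. The 8 genes described here were the copper importer SLC31A1 (CTR1), its relative SLC31A2 (CTR2), the copper chaperone ATOX1, the copper-exporting ATPases ATP7A and ATP7B, the organic cation transporters SLC22A2 (OCT2) and SLC22A3 (OCT3), and the proton-coupled cation exporter SLC47A1 (MATE1). They were found by their gene names on the array: 15 probes and 24 spots on each array, of 50599 probes, 58717 spots and 36204 gene names in all.

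The 18 arrays held RNA of HT29, a human colorectal adenocarcinoma cell line, and of HTOXAR3, an OXA-resistant subline that had been kept in increasing OXA. Whether HTOXAR3 is 1 clone is not given in the sources used here. Each line was left untreated, treated with OXA for 24 h, or treated for 24 h with OXA and 10 μM Curcumin, a plant polyphenol that blocks NF-κB, with 3 biological replicates in each of the 6 groups. The labels and the study's array methods give the cells without drug as untreated, whereas its results section speaks of vehicle. OXA was given at 10 μM to HT29 and at 30 μM to HTOXAR3, so that line and dose cannot be told apart under treatment.

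SLC31A1 passes copper through the plasma membrane, and SLC31A2, found mostly on internal membranes, is known to influence SLC31A1. ATOX1 hands copper to ATP7A and ATP7B, which pump it into the secretory pathway or out of the cell. The OCTs take up positively charged compounds, OXA among them, and MATE1 exports them.

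Between 52.4% and 63.6% of the spots were well above background on an array. Any 2 arrays of a group correlated at 0.985 or more over gene names, and no 2 arrays above 0.995. The share of spots above background was higher under OXA without overlap, at 62.4% to 63.0% against 58.0% to 60.7% in untreated HT29 and at 62.3% to 63.2% against 52.4% to 62.2% in untreated HTOXAR3, whose replicate 2 was the lowest of all arrays. Its part in the differences under OXA was not tested. The arrays lay on 3 slides, with 2 arrays on the first (1 untreated and 1 OXA-treated HT29) and 8 on each of the others. Of 10 intestinal epithelial markers, 8 were well above background on every array, with CEACAM5 on 16 and CDX2 on 10. Of 6 fibroblast markers none was so on every array and COL1A2, COL3A1 and PDGFRA were on none, while 2 of 4 immune markers (PTPRC and CD68, with CD3E on 17 arrays and LYZ not matched) and 2 of 3 endothelial ones (CDH5 and VWF) were above background on all 18.

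The probes decide what each value measures, so the first 30 of the 60 bases of those that carry the results are printed here, 5′ to 3′ as deposited, with their GRCh37 positions. SLC31A1 has a probe starting at base 397 of its transcript, here called the 5′ probe, and one starting at base 4112, the 3′ probe. All 8 genes were matched, with ATP7A on 5 probes, SLC31A1, SLC22A2 and SLC47A1 on 2 each and the others on 1.
SLC31A1 5′ probe, chr9:116020983-116021042, plus strand: gagcttttgtggcagtgtttttactagcaa
SLC31A1 3′ probe, chr9:116026107-116026166, plus strand: ccactaggagattagaaattaaggtttctt
SLC31A2, chr9:115926240-115926299, plus strand: cattttttgagttagatgggactctctgga
ATOX1, chr5:151125870-151125929, minus strand: tgaagaaaacaggaaagactgtttcctacc
ATP7B, chr13:52507035-52507094, minus strand: acatttccgctgtccgtcagtaattgtgtc
SLC22A2, chr6:160638226-160638285, minus strand: cagatcctgccaaattcttccagctcactt

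Values are log2 normalised intensities, which can be compared between groups for 1 probe but not between probes. A gene is represented by its brightest probe, and a difference was called where the adjusted p of limma, corrected over all gene names by the method of Benjamini and Yekutieli, was below 0.05 and the change over 1.2-fold. The p-values set each difference against a spread between replicates that limma pooled over all 6 groups and moderated over gene names. They cover only these replicates. The number of arrays limits the precision, and as the RNA came from whole cultures, fewer cells with a transcript and less of it per cell cannot be told apart.

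The copper importer SLC31A1 was lower in the untreated resistant subline on its brightest probe, and fell under OXA in both lines. On the 3′ probe, the brightest, untreated HT29 gave 9.87, 9.85 and 9.90, and untreated HTOXAR3 9.52, 9.58 and 9.59. The lines did not overlap, and SLC31A1 was lower in HTOXAR3 by a log2 difference of -0.31 (SE 0.06, 1.24-fold lower, limma adjusted p = 0.0267). Under OXA, HT29 fell to 9.28, 9.35 and 9.47, a difference of -0.51 (SE 0.06, 1.42-fold, limma adjusted p = 3.28e-04), and HTOXAR3 to 9.19, 9.30 and 9.24, a difference of -0.32 (SE 0.06, 1.25-fold, limma adjusted p = 0.0257). Every treated array lay below every untreated array of its line. The basal call rests on 1 probe: the 5′ probe gave a basal difference of -0.09 (95% interval -0.26 to 0.07, limma adjusted p = 1), and leaving out any 1 of the 6 arrays raised the adjusted p of the 3′ probe to between 0.0816 and 0.152. The call for OXA in HTOXAR3 was likewise lost without any 1 of its 6 arrays (limma adjusted p between 0.0513 and 0.146), with differences from -0.35 to -0.29. The call for OXA in HT29 was kept without each. Between the lines, the 3′ probe gave -0.13 under OXA, with overlapping arrays, and -0.21 under OXA plus Curcumin (limma adjusted p = 0.267). The 5′ probe gave 0.09 in each of these conditions. None of these line differences was called.

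With Curcumin added, the SLC31A1 probes gave different values. On the 3′ probe, OXA plus Curcumin gave 9.30, 9.47 and 9.47 in HT29 and 9.18, 9.22 and 9.20 in HTOXAR3, and the effect of adding Curcumin was not called in either line (0.05 in HT29, 95% interval -0.09 to 0.18; -0.04 in HTOXAR3, 95% interval -0.18 to 0.10). On the 5′ probe, HT29 went from 8.98, 8.90 and 8.98 untreated to 8.43, 8.44 and 8.26 under OXA and 8.76, 8.87 and 8.65 with Curcumin added. HTOXAR3 went from 8.92, 8.79 and 8.87 to 8.58, 8.48 and 8.34 and back to 8.88, 8.84 and 8.82. The groups with and without Curcumin did not overlap in either line on this probe. With each probe tested on its own, the fall under OXA was called on the 5′ probe too (-0.58, limma adjusted p = 7.45e-04 in HT29; -0.39, limma adjusted p = 0.0279 in HTOXAR3). The rise on adding Curcumin was 0.38 (SE 0.08) in both lines, and was called in HTOXAR3 (limma adjusted p = 0.0422) but not in HT29 (limma adjusted p = 0.0592).

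Within each array, the log2 ratio of the 5′ to the 3′ probe averaged -0.99 in HT29 under OXA and -0.66 with Curcumin added, and -0.78 and -0.36 in HTOXAR3. The ratio was higher on every array with Curcumin than on any array with OXA alone in both lines, by 0.33 and 0.42. A two-sided exact permutation test gave p = 0.1 for each, the smallest that 3 arrays against 3 allow, and an adjusted p of 0.15 over the 9 comparisons tested. OXA alone moved the ratio by -0.07 in HT29 (exact permutation p = 0.9) and by -0.07 in HTOXAR3 (exact permutation p = 0.4). The ratio was examined after the values of both probes had been seen. Which transcripts each probe binds was not tested. The ratio was also higher in HTOXAR3 without overlap between the untreated lines (by 0.22) and between the lines under OXA plus Curcumin (by 0.30), each at exact permutation p = 0.1. Against untreated cells, OXA plus Curcumin left the 3′ probe lower by -0.46 in HT29 and by -0.36 in HTOXAR3 (limma adjusted p = 6.69e-04 and 0.00588), while the 5′ probe was at -0.19 and -0.02 with neither called.

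**Figure D1:**
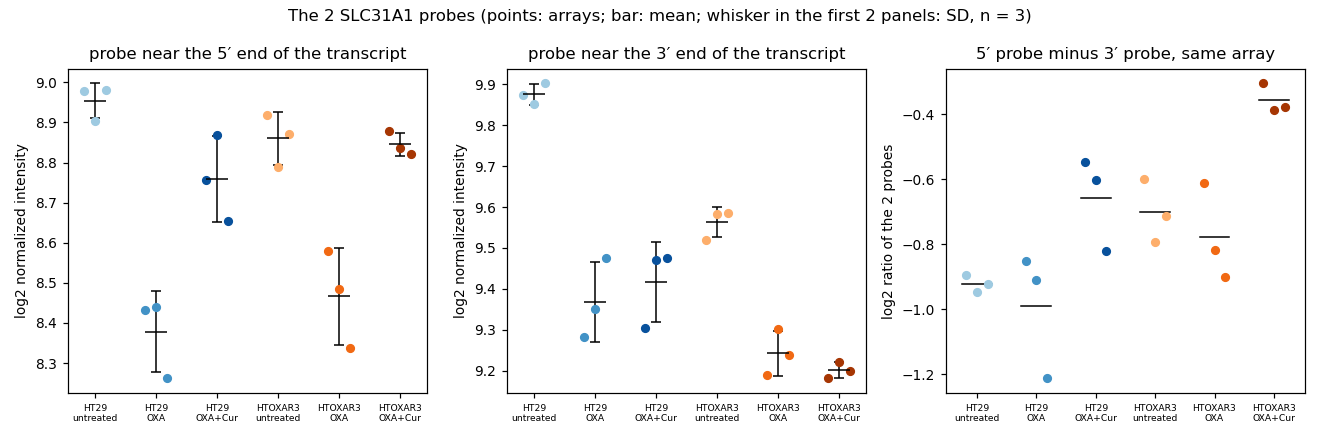
SLC31A1 on the 18 arrays: log2 normalised intensity on the 5′ probe and on the 3′ probe by group, and the log2 ratio of the 5′ to the 3′ probe within each array. Points are arrays, bars means and, in the plots of single probes, whiskers SDs (n = 3). Both probes fell under OXA, and with Curcumin added the 5′ probe stood 0.38 higher in both lines while the 3′ probe was 0.05 higher in HT29 and at -0.04 in HTOXAR3.

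SLC31A2 went the other way, and was called in each of the 9 comparisons between 2 groups. Untreated HT29 gave 9.42, 9.39 and 9.42 and untreated HTOXAR3 9.96, 10.08 and 10.10. The resistant subline was higher on every array, by 0.64 (SE 0.06, 1.55-fold, limma adjusted p = 1.17e-05). Under OXA, HT29 rose to 9.82, 9.87 and 9.92, by 0.46 (SE 0.06, 1.38-fold, limma adjusted p = 2.02e-04). HTOXAR3 rose to 10.46, 10.49 and 10.41, by 0.41 (SE 0.06, 1.33-fold, limma adjusted p = 0.00121). No treated array overlapped an untreated one of its line.

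With Curcumin added to OXA, SLC31A2 was higher again. HT29 reached 10.13, 10.21 and 10.13, higher than OXA alone by 0.29 (SE 0.06, 1.22-fold, limma adjusted p = 0.034). HTOXAR3 reached 10.84, 10.81 and 10.88, by 0.39 (SE 0.06, 1.31-fold, limma adjusted p = 0.00214). The call in HT29 is the least firm, with a limma adjusted p of 0.0505 with replicate number as a block, 0.0935 with the slide as a block, and between 0.0593 and 0.198 without any 1 of the 6 arrays. Against untreated cells, OXA plus Curcumin raised SLC31A2 by 0.75 in HT29 (1.68-fold, limma adjusted p = 1.64e-06) and by 0.80 in HTOXAR3 (1.74-fold, limma adjusted p = 1.13e-06). HTOXAR3 was the higher line under OXA (0.58, limma adjusted p = 2.25e-05) and under OXA plus Curcumin (0.69, limma adjusted p = 4.86e-06). Ordered by their means, the groups ran from untreated HT29 (9.41) through HT29 under OXA (9.87), untreated HTOXAR3 (10.05), HT29 under OXA plus Curcumin (10.16) and HTOXAR3 under OXA (10.45) to HTOXAR3 under both (10.84). Untreated HTOXAR3 and HT29 under OXA plus Curcumin, neighbours in this order, came closest, with nearest arrays at 10.10 and 10.13, and were not compared by a test.

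The summed log2 level of the 3 matched immune markers was between 7.69 and 7.83 in untreated HT29, 7.68 and 7.83 under OXA, and 8.27 and 8.53 with Curcumin added. In HTOXAR3 it was between 7.75 and 7.79, 7.71 and 7.98, and 8.57 and 8.74. It overlapped between untreated and OXA-treated arrays in both lines and was higher with Curcumin added, as SLC31A2 was. Of the markers in this sum, CD68 had the widest range over all arrays (6.49 to 8.37), against 5.96 to 6.51 for PTPRC and 4.90 to 5.58 for CD3E. The summed fibroblast markers were between 6.14 and 6.42 in untreated HT29, 6.60 and 6.78 in HT29 under OXA and 6.55 and 6.75 in untreated HTOXAR3, neither overlapping untreated HT29, though no fibroblast marker was well above background on every array. They were between 6.38 and 6.43 in HT29 with Curcumin added, and between 6.59 and 7.19 under OXA and 6.34 and 6.70 with Curcumin added in HTOXAR3. The summed epithelial markers were between 18.98 and 19.08 in untreated HT29 and 19.13 and 19.22 under OXA, and in HTOXAR3 they overlapped between untreated (19.02 to 19.05) and OXA-treated arrays (19.02 to 19.05). With Curcumin added they were between 19.13 and 19.21 in HT29, overlapping OXA alone, and between 19.14 and 19.18 in HTOXAR3, above OXA alone and untreated without overlap. The part of these markers in the results was not tested.

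SLC31A1 and SLC31A2 lie near each other on chromosome 9, with the protein-coding gene FKBP15 between them in RefSeq's gene order (GRCh38.p14). FKBP15, named here after its values were seen, was not called between the untreated lines (0.08) or under OXA (0.13 in HT29 and 0.04 in HTOXAR3), and rose under OXA plus Curcumin against untreated HT29 (0.28, limma adjusted p = 0.0158). CDC26, next to SLC31A1 on its other side, rose under OXA in HT29 by 0.32 (limma adjusted p = 0.00312), and PRPF4 beyond it was not called (-0.02). Over the 18 arrays, SLC31A1 and SLC31A2 correlated at -0.85, a description of arrays that share groups and slides, and within groups, after subtracting the group means, at 0.61.

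ATOX1, the chaperone between the importer and the exporters, was higher in untreated HTOXAR3 (13.16, 13.18 and 13.22) than in untreated HT29 (12.95, 12.89 and 12.93). The difference was 0.27 (SE 0.06, limma adjusted p = 0.0395), just over the 1.2-fold threshold, and the lines did not overlap. The call lies at both thresholds: it was lost without any 1 of the 6 arrays (limma adjusted p between 0.101 and 0.211), with arrays scaled to their 75th percentile (0.0582) and when each probe was tested on its own (0.0545). Under OXA, ATOX1 gave 13.24, 13.15 and 13.10 in HT29, a difference of 0.24 (95% interval 0.12 to 0.37, limma adjusted p = 0.0542), and 13.32, 13.46 and 13.28 in HTOXAR3, a difference of 0.17 (95% interval 0.04 to 0.29, limma adjusted p = 0.634). Neither was called, though no treated array overlapped an untreated one of its line. Adding Curcumin gave -0.05 in HT29 and -0.03 in HTOXAR3, with overlapping arrays.

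ATP7B, the copper exporter mutated in Wilson disease, showed the largest basal difference of the 8 genes. Untreated HT29 gave 9.04, 8.96 and 9.27 and untreated HTOXAR3 9.85, 9.84 and 9.95. HTOXAR3 was higher by 0.79 (SE 0.08, 1.73-fold, limma adjusted p = 6.16e-05). The gap was called under OXA (0.65, SE 0.08, limma adjusted p = 3.32e-04) and under OXA plus Curcumin (0.60, SE 0.08, limma adjusted p = 7.47e-04). In all 3 conditions every HTOXAR3 array lay above every HT29 array.

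Within a line ATP7B was called in no comparison. HT29 under OXA gave 9.34, 9.49 and 9.49, a difference of 0.35 (95% interval 0.18 to 0.52) with a limma adjusted p of 0.0502, which became 0.0265 with the replicate block and 0.0445 with the slide as a block. HTOXAR3 under OXA gave 10.09, 10.01 and 10.17, a difference of 0.21 (95% interval 0.04 to 0.38, limma adjusted p = 1). With Curcumin added, HT29 gave 9.21, 9.19 and 9.24 and HTOXAR3 9.88, 9.74 and 9.80, differences from OXA alone of -0.23 (95% interval -0.40 to -0.05) and -0.28 (95% interval -0.45 to -0.11). Neither of these was called (limma adjusted p = 1 and 0.304), and the arrays with and without Curcumin did not overlap in either line.

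ATP7A, the exporter mutated in Menkes disease, was called in no comparison on its brightest probe. Untreated HT29 gave 10.32, 9.96 and 10.11 and untreated HTOXAR3 9.93, 9.73 and 9.79, a basal difference of -0.32 (95% interval -0.61 to -0.03, limma adjusted p = 1). OXA gave -0.07 in HT29 and 0.08 in HTOXAR3, with overlapping arrays. Adding Curcumin to OXA in HT29 took it from 10.35, 9.96 and 9.87 to 10.74, 10.51 and 10.36. These arrays did not overlap, and the difference of 0.48 (95% interval 0.18 to 0.77) had a limma adjusted p of 0.372, which became 0.0435 with the replicate block and 0.0369 with the slide as a block. In HTOXAR3 the difference was 0.11 (95% interval -0.18 to 0.40). Against untreated HT29, OXA plus Curcumin gave 0.40 (95% interval 0.11 to 0.69, limma adjusted p = 0.434) with no overlap. The limma adjusted p became 0.0443 with the replicate block and 0.0287 with the slide as a block. Under OXA plus Curcumin, HTOXAR3 gave 10.04, 10.06 and 9.91, below every such HT29 array by a difference of -0.53 (95% interval -0.82 to -0.24, limma adjusted p = 0.105; 0.0276 with the slide as a block).

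All 5 ATP7A probes were well above background on every array, and in HT29 the mean of all 5 was higher with Curcumin added, by 0.22 to 0.68. The arrays overlapped on A_33_P3327772, at 0.22, and A_33_P3210880, at 0.68, was matched to no RefSeq transcript. Only A_33_P3210875 was called when tested on its own, among the 4.66% of all probes that were: it went from 9.24, 9.11 and 9.17 to 9.70, 9.55 and 9.51, by 0.41 (SE 0.07, limma adjusted p = 0.0106). In HTOXAR3 the 5 probes ran from -0.11 to 0.41 and none was called, against 7.85% of all probes. The difference in this effect between the lines on the brightest probe was -0.37 (95% interval -0.78 to 0.05, limma adjusted p = 1). Under OXA plus Curcumin, the difference between the lines was called on A_33_P3210875 (-0.36, limma adjusted p = 0.011) and on A_23_P217737 (-0.52, limma adjusted p = 0.015), and on no other ATP7A probe, where 13.0% of all probes were called. On the brightest it was -0.53 (limma adjusted p = 0.117). For OXA plus Curcumin against untreated HT29, A_33_P3210875 was called (0.38, limma adjusted p = 0.00507) and no other ATP7A probe was.

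**Figure D2:**
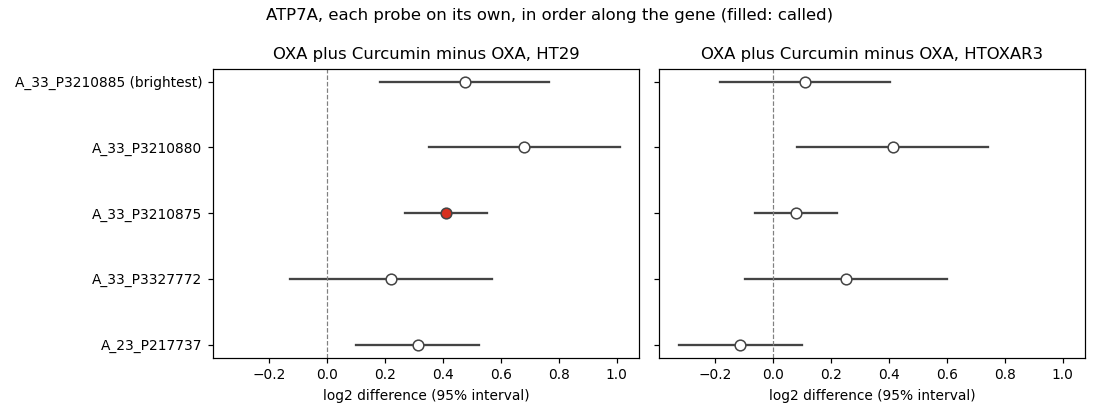
ATP7A: log2 difference between OXA plus Curcumin and OXA alone in HT29 and in HTOXAR3 for each of the 5 probes, with its 95% interval; filled points were called. All 5 lie above 0 in HT29 (0.22 to 0.68), with A_33_P3210875 called at 0.41, and they run from -0.11 to 0.41 in HTOXAR3.

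The organic cation transporters were near or below the background of the arrays. SLC22A2 has 10 spots of 1 probe on each array, and at least 50% of them were well above background on 15 arrays, the exceptions being untreated HT29 replicates 1 and 2 and untreated HTOXAR3 replicate 2. HTOXAR3 gave 4.92, 4.59 and 5.15 untreated and 5.72, 5.62 and 5.49 under OXA, a difference of 0.72 (95% interval 0.38 to 1.07, limma adjusted p = 0.0536) with no overlap. HT29 gave 4.73, 4.41 and 4.90 untreated and 4.95, 4.73 and 5.06 under OXA, a difference of 0.23 (95% interval -0.11 to 0.58, limma adjusted p = 1). Neither was called. Of 15 alternative settings, 6 called the difference in HTOXAR3, among them the slide as a block (0.64, limma adjusted p = 0.0353) and the normexp offset at 50 (0.30, limma adjusted p = 0.0233), and its value ran from 0.30 to 0.92 over the 15.

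Under OXA plus Curcumin SLC22A2 gave 4.68, 4.65 and 4.91 in HT29 and 5.25, 5.60 and 5.58 in HTOXAR3. HTOXAR3 was higher by 0.73 (SE 0.16, 1.65-fold, limma adjusted p = 0.0405), the 1 call for this gene. It was lost without any 1 of 5 of the 6 arrays (limma adjusted p between 0.0596 and 0.218), and kept without HTOXAR3 replicate 1 of that group. With the normexp offset at 50 the difference was 0.30, and with the processed signal 1.14, both called. Under OXA alone the line difference was 0.70 and not called (limma adjusted p = 0.0539), but 6 of 15 alternative settings called it, among them the offset at 50 (0.30, limma adjusted p = 0.0199), with values from 0.30 to 0.86 over the 15. The difference between the lines in the response to OXA was 0.49 (95% interval 0.00 to 0.98, limma adjusted p = 1). The other SLC22A2 probe was not well above background on any array.

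SLC22A3, on 1 probe that the array design ties to an Ensembl transcript alone, was well above background on 3 arrays: untreated HT29 replicates 2 and 3 (4.83 and 5.22; replicate 1 gave 4.34) and HT29 under OXA plus Curcumin replicate 1 (4.60). On the 3 arrays of HT29 under OXA it was not well above background (3.84, 3.86 and 4.24), and the comparison with untreated HT29 was not called (limma adjusted p = 0.157). On the 9 HTOXAR3 arrays it was not well above background, with values from 3.31 to 4.35. SLC47A1 was not well above background on any array on either of its probes (3.16 to 4.38 on the brighter), so no change of it could be measured.

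**Figure D3:**
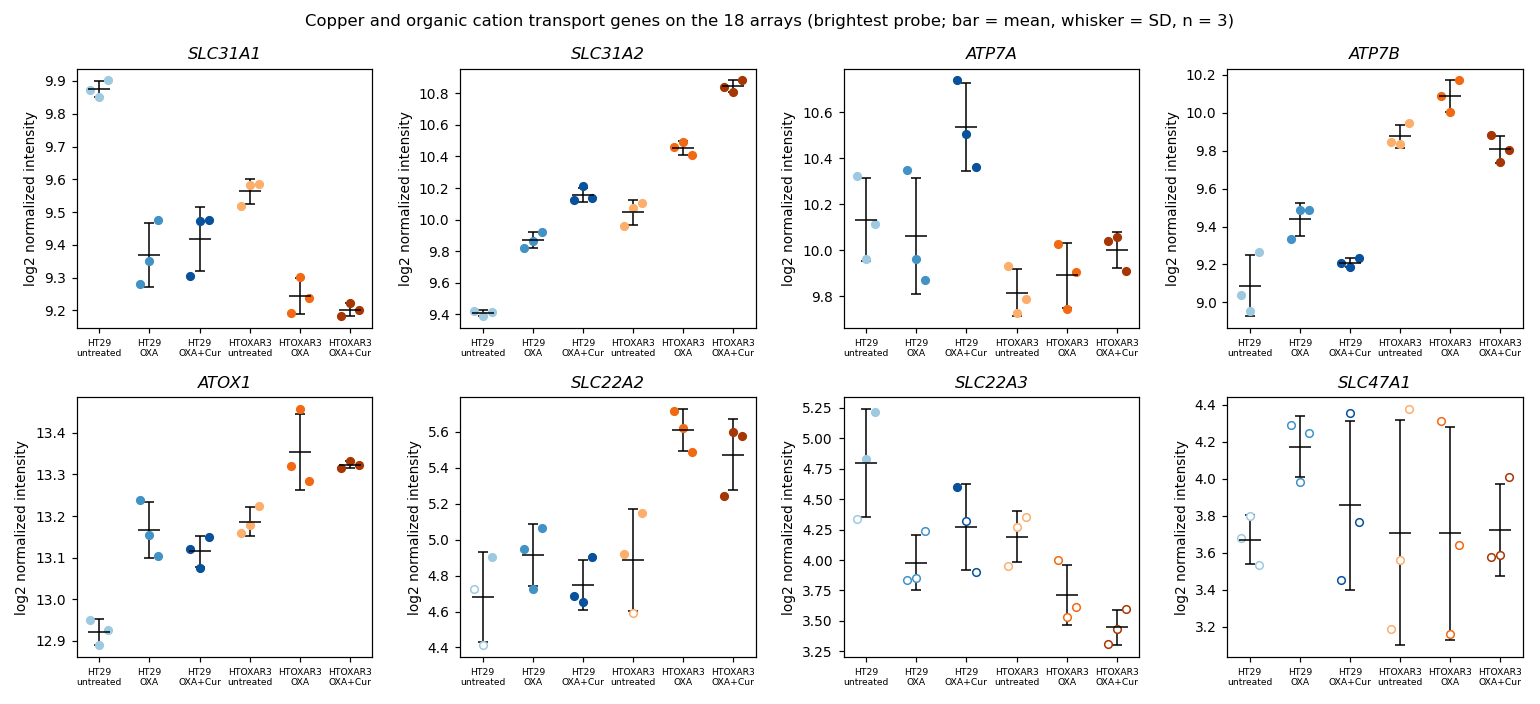
Log2 normalised intensity of the 8 genes (brightest probe of each) by group: untreated, OXA, and OXA plus Curcumin (OXA+Cur) in HT29 and HTOXAR3. Points are arrays, filled where at least 50% of the spots were well above background, bars means and whiskers SDs (n = 3), and each panel has its own axis. The values of SLC31A2 ran from 9.39 to 10.88 and those of SLC31A1 from 9.18 to 9.90.

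Counted by comparison, 4 of the 8 genes were called between the untreated lines, SLC31A2, ATP7B and ATOX1 higher and SLC31A1 lower in HTOXAR3, against 11.5% of all gene names. Without any 1 of the 6 arrays the count was 2, SLC31A2 and ATP7B. OXA against untreated called SLC31A1 and SLC31A2 in both lines, where 15.9% of gene names were called in HT29 and 10.2% in HTOXAR3. The call for SLC31A1 in HTOXAR3 was lost without any 1 of its arrays. For OXA in HT29 the replicate block also called ATP7B (limma adjusted p = 0.0265), and 16% of gene names. Adding Curcumin called SLC31A2 in both lines, against 5.53% and 8.83%. In HT29, where the replicate numbers were taken to pair the samples, the replicate block called ATP7A (limma adjusted p = 0.0435) and not SLC31A2 (0.0505). Leaving out any 1 of the 6 arrays called none of the 8 genes for adding Curcumin in HT29. OXA plus Curcumin against untreated called SLC31A1 and SLC31A2 in both, against 18.6% and 17.5%. Between the lines, SLC31A2 and ATP7B were called under OXA (14.1% of gene names), and these and SLC22A2 under OXA plus Curcumin (13.9%). Fitting only gene names well above background on all arrays of a group called 22.4% of those between the untreated lines. Over the 9 comparisons the shares of that fit ran from 12.3% to 34.3%. The median difference of the 8 genes lay between -0.04 and 0.24 in these 9 comparisons and that of all gene names between -0.03 and 0.01. The comparisons share groups: both treatments of a line are set against the same untreated arrays.

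Within a slide the called differences kept their direction. Between the untreated lines, slides 2 and 3 gave -0.30 and -0.32 for SLC31A1, 0.63 and 0.69 for SLC31A2, 0.89 and 0.68 for ATP7B, and 0.28 and 0.30 for ATOX1. For OXA in HT29, slides 1, 2 and 3 gave -0.59, -0.50 and -0.43 for SLC31A1 and 0.40, 0.48 and 0.51 for SLC31A2. For OXA in HTOXAR3, slides 2 and 3 gave -0.36 and -0.32 for SLC31A1 and 0.44 and 0.35 for SLC31A2. For adding Curcumin, SLC31A2 gave 0.30 and 0.21 in HT29, and 0.38 and 0.39 in HTOXAR3. Each of these rests on 2 to 4 arrays and has no test.

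None of the 8 was called for a difference in response between the lines, by limma: not to OXA (1.01% of gene names called), to OXA plus Curcumin (0.856%) or to adding Curcumin (0.135%). At an unadjusted p under 0.05 there was 1 for OXA and 1 for OXA plus Curcumin, both SLC22A2, and 0 for adding Curcumin. The Benjamini-Hochberg method called 0 as well. For SLC31A1 the response to OXA in HTOXAR3 minus that in HT29 was 0.19 (95% interval -0.01 to 0.38), and for SLC31A2 it was -0.05 (95% interval -0.22 to 0.11). For the effect of adding Curcumin the difference was 0.10 for SLC31A2 (95% interval -0.06 to 0.27) and -0.05 for ATP7B (95% interval -0.30 to 0.19). These intervals do not show that the lines responded alike, and HTOXAR3 received the higher dose of OXA.

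Tested probe by probe, 10.6% of all probes were called between the untreated lines, and of the 15 probes those of SLC31A2, ATP7B and the 3′ probe of SLC31A1 were. OXA called 14.4% of probes in HT29 and 9.25% in HTOXAR3, and in both lines the SLC31A2 probe and both SLC31A1 probes were among them.

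**Figure D4:**
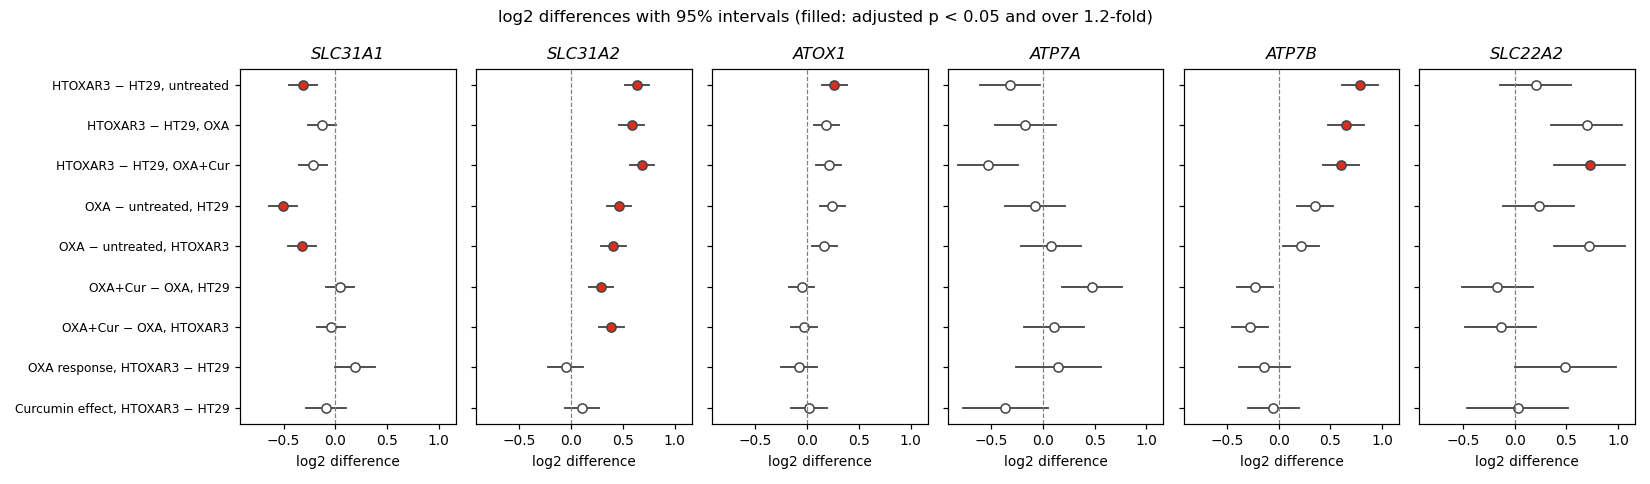
Log2 differences of 6 genes with 95% intervals in 9 comparisons: between the lines in each condition, OXA against untreated, OXA plus Curcumin against OXA, and the differences between the lines in these responses. Filled points were called; SLC31A1 lies below 0 under OXA (-0.51 and -0.32), SLC31A2 above 0 in the first 7 comparisons (0.29 to 0.69), and no point in the last 2 was called.

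The gene names whose log2 intensity followed each gene most closely over the 18 arrays, among 17405 well above background on all, were ARID3B, TMPRSS13 and TBC1D2 for SLC31A2 (Pearson r 0.990, 0.986 and 0.985). For SLC31A1 they were C10orf32 (BORCS7 in RefSeq), SLC19A2 and TMEM120B (0.970, 0.967 and 0.966). For ATP7B they were KIAA1467 (FAM234B in RefSeq), LGALSL and CAMK2N2 (0.985, 0.978 and 0.977), and for ATOX1 ARMC5, PPP1R18 and PTPN7 (0.962, 0.962 and 0.960). ATP7A had weaker likenesses, to the unnamed probe A_33_P3309849, CPT1A and LOC728323 (0.903, 0.883 and 0.863). The arrays share groups and slides, so these values describe the 18 arrays.

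The other genes of copper handling were taken from 5 lists with 57 genes, all matched on the array. Between the untreated lines, 6.26% of gene names were called higher and 5.28% lower in HTOXAR3. Of 20 copper delivery genes, 2 were higher, COMMD1, which binds ATP7B and takes part in copper export (0.92), and SCO2, which delivers copper to cytochrome c oxidase (0.29). In the same list 2 were lower, COX17, which supplies mitochondria with copper (-0.47), and CCS, the copper chaperone of superoxide dismutase 1 (-0.29). The list's median was -0.19 against -0.03 for all gene names. Of 16 copper enzymes, 4 were higher and none lower: the lysyl oxidase-like LOXL4 (2.77, limma adjusted p = 4.14e-11), LOXL1 (1.69) and LOXL3 (0.98), which cross-link matrix proteins, and the extracellular superoxide dismutase SOD3 (1.57). LOXL4 gave a mean of 8.63 in untreated HT29 and of 11.40 in untreated HTOXAR3. The median of this list was 0.01, and 12 of its genes were not called.

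Of 6 metalloreductase and divalent metal entry genes, STEAP1 was higher in untreated HTOXAR3 (0.63) and SLC11A2, the divalent metal transporter DMT1, lower (-0.33). Of 7 other cation carriers, SLC22A4 (0.91) and SLC22A5 (0.55), the carriers OCTN1 and OCTN2, were higher and SLC47A2, the second MATE exporter, lower. SLC47A2 was well above background on the 9 HT29 arrays alone, so its level in untreated HTOXAR3 has only a bound. It was at least 2.69-fold lower there, from a mean of 5.91 in untreated HT29 against 4.48. The latter is the mean over the untreated HTOXAR3 arrays of the lowest signal well above background on each. This bound has no test, and the limma adjusted p of 3.31e-04 belongs to the measured difference (-2.11). The measured values in untreated HTOXAR3 ran up to 3.94. Of 8 other genes tied to platinum drugs, TMEM205 was higher (0.39) and the efflux pump ABCG2 lower (-0.73).

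Under OXA, 8.33% of gene names were called higher and 7.62% lower in HT29, and 5.31% and 4.94% in HTOXAR3. Copper delivery genes gave 3 higher and 7 lower in HT29, led by COX19 (0.91) and GLRX (0.68) and by COMMD1 (-0.66) and COX11 (-0.54), and 1 higher and 3 lower in HTOXAR3, led by COX19 (0.55) and by CHCHD7 (-0.38) and XIAP (-0.34). The list's median was -0.19 in HT29 and -0.17 in HTOXAR3, against -0.01 and 0.01 for all gene names. The copper enzyme LOXL4 rose in both lines (2.04 and 1.69), with LOXL3 in HT29 (0.93) and a fall of LOXL1 in HTOXAR3 (-0.57). The list gave 3 higher and 0 lower in HT29, and 2 higher and 1 lower in HTOXAR3, where AOC3, the other rise, was well above background on some arrays only. Of the metalloreductases, STEAP4 rose (1.41 and 0.61) and STEAP3 fell (-1.11 and -1.10) in both lines, and STEAP2 fell in HT29 (-0.50). Of the other platinum genes, LRRC8E (1.08 and 0.57), a subunit of the volume-regulated anion channel, rose in both lines, with TMEM205 next in HT29 (0.59) and LRRC8A in HTOXAR3 (0.53), and ABCG2 fell in both (-1.52 and -1.49). That list gave 3 higher and 1 lower in each line. The other cation carriers gave 1 call, SLC22A5 in HT29 (0.52).

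Adding Curcumin to OXA called 3.14% of gene names higher and 2.39% lower in HT29, and 4.43% and 4.41% in HTOXAR3. GLRX, glutaredoxin, led the copper delivery genes in both lines (0.59 and 1.00), with CCS in HT29 (0.37) and CUTC in HTOXAR3 (0.57), and COA5 fell in HTOXAR3 (-0.49). That list gave 3 higher and 0 lower in HT29 and 3 higher and 1 lower in HTOXAR3. Superoxide dismutase SOD1 rose in both lines (0.36 and 0.66) and LOXL1 fell in both (-0.90 and -0.90), with LOXL3 in HT29 (-1.32) and AOC1 in HTOXAR3 (-0.83). The copper enzymes gave 1 higher and 3 lower in HT29, and 1 higher and 2 lower in HTOXAR3. TMEM205 rose in both (0.33 and 0.27), and LRRC8C fell in HT29 (-0.42). No metalloreductase and no other cation carrier was called in either line by limma.

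Against untreated cells, OXA plus Curcumin called 55% of the copper delivery genes in HT29 (3 higher and 8 lower) and 40% in HTOXAR3 (3 higher and 5 lower). Of the 16 copper enzymes it called 3 and 6 (18.8% and 37.5%), against 18.6% and 17.5% of all gene names. All copper delivery genes were well above background on every array. With only gene names well above background on all arrays of a group fitted, OXA plus Curcumin called 34.3% in HT29 and 32.1% in HTOXAR3. It raised GLRX (1.27 in HT29 and 1.21 in HTOXAR3), COX19 (0.88 and 0.55), LOXL4 (1.63 and 1.57), SOD1 (0.69 and 0.73), STEAP4 (1.43 and 0.85) and LRRC8E (0.79 and 0.57), and lowered STEAP3 (-1.31 and -1.35), STEAP2 (-0.40 and -0.45), CMC1 (-0.48 and -0.55), LOXL1 (-1.11 and -1.48) and ABCG2 (-1.47 and -1.52) in both lines. In HT29 TMEM205 (0.92), SLC22A4 (0.59) and SLC22A5 (0.56) were also among the largest rises, and COX11 (-0.64) and LRRC8C (-0.37) among the largest falls. In HTOXAR3 these were LRRC8A (0.56), COA5 (-0.73) and SOD3 (-0.88).

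Between the lines, 3 copper delivery genes were called higher and 5 lower in HTOXAR3 under OXA, and as many under OXA plus Curcumin. They were 40% of that list in each, against 14.1% and 13.9% of all gene names. Fitting only gene names well above background on all arrays of a group called 26.9% and 26.6% of those. Under OXA, HTOXAR3 was higher for COMMD1 (1.36), SCO1 (0.38), LOXL4 (2.41), SOD3 (1.50), STEAP1 (1.00), STEAP2 (0.42), SLC22A4 (1.04) and LRRC8C (0.52), and lower for GLRX (-0.71), COX19 (-0.55), AOC1 (-0.55), SOD1 (-0.40), STEAP4 (-1.25), SLC11A2 (-0.32), ABCG2 (-0.70) and LRRC8E (-0.33). Under OXA plus Curcumin it was higher for COMMD1 (1.28), CUTC (0.44), LOXL4 (2.72), LOXL3 (1.47), STEAP1 (0.75), SLC22A4 (0.72) and LRRC8C (0.70), and lower for AP1S1 (-0.72), CCS (-0.60), AOC1 (-1.21), STEAP4 (-1.03), SLC29A4 (-0.96) and ABCG2 (-0.78). None of the 57 genes was called by limma for a difference in response between the lines to OXA, to both drugs or to adding Curcumin, where 1.01%, 0.856% and 0.135% of gene names were.

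**Figure D5:**
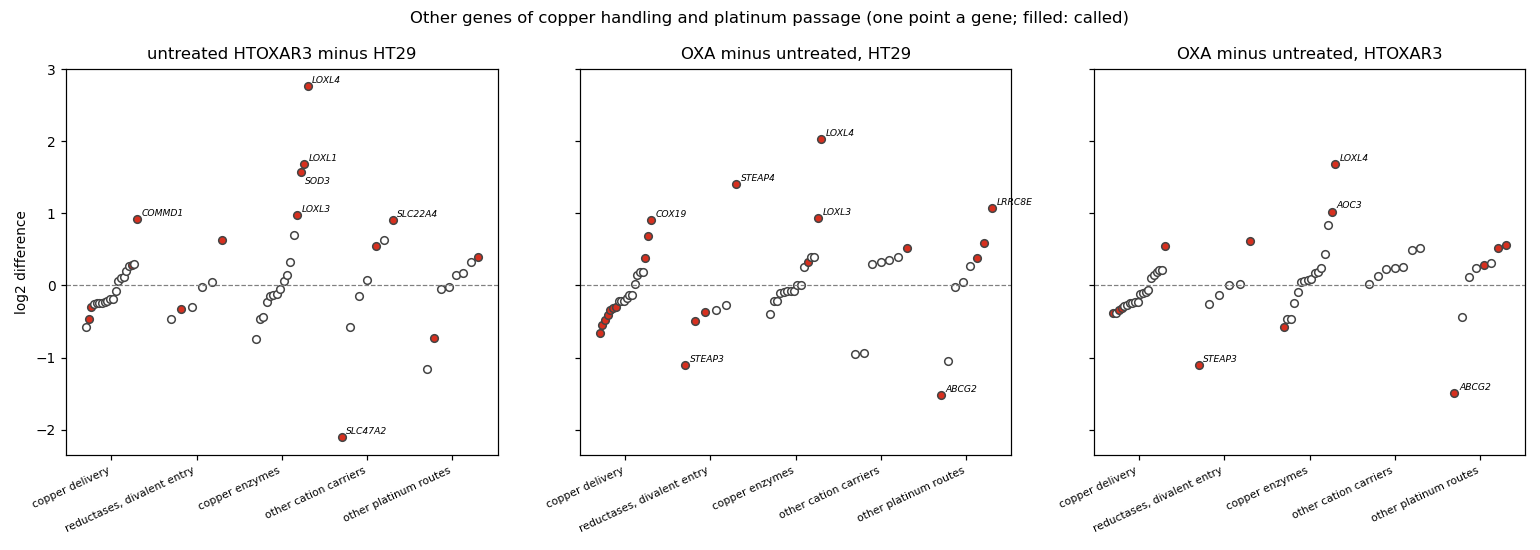
Log2 differences of the genes of the 5 lists, 1 point a gene, sorted within a list, between the untreated lines and under OXA in each line. Filled points were called, and called genes more than 0.9 from 0 are named; LOXL4 stands highest among the called genes in all 3 panels (2.77, 2.04 and 1.69), and ABCG2 lies at -1.52 and -1.49 under OXA. SLC47A2 is drawn at its measured difference between the untreated lines (-2.11). It was not well above background in HTOXAR3, so only a bound, at least 2.69-fold lower, can be given.

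Of the 4 genes called between the untreated lines, ATP7B, ATOX1 and SLC31A1 matched the promoter table and SLC31A2 did not. The calls for ATOX1 and SLC31A1 were lost without any 1 array. For these 3 genes, the 250 bases before their RefSeq starts (GRCh38.p14) are printed with letters that match 3 motifs, searched on both strands, in capitals. The motifs were the GC box bound by SP1 (GGGCGG), the core of the metal response element bound by MTF1 (TGCGCNC or TGCACNC) and the CCAAT box (CCAAT). In this window the GC box was found in 42.6%, the metal response element core in 24.8% and the CCAAT box in 32.0% of 35116 RefSeq promoters. The table lists 3 starts for ATP7B, of which the first is shown.
SLC31A1, chr9:113221294-113221543, plus strand: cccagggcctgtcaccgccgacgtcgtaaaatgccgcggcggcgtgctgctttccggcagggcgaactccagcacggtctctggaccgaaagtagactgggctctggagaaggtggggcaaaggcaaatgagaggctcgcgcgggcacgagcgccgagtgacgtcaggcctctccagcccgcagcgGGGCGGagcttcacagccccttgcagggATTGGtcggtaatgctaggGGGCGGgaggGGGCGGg
ATOX1, chr5:151758632-151758881, minus strand: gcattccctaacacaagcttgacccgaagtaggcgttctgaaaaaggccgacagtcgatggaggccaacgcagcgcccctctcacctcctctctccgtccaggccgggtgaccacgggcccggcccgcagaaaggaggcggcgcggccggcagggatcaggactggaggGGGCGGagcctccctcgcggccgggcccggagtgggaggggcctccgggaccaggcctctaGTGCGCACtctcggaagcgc
ATP7B, chr13:52012133-52012382, minus strand: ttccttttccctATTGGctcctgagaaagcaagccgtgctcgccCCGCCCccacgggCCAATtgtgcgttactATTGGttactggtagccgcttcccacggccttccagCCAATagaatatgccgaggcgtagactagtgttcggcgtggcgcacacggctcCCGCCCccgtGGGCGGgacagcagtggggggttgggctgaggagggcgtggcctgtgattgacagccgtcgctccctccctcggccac

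The SLC31A1 window held 3 GC boxes, 1 CCAAT box and no metal response element core. That of ATOX1 held 1 GC box and 2 metal response element cores, which are 1 palindromic stretch read on both strands, and the printed one of ATP7B held 3 GC boxes and 4 CCAAT boxes. The window of the second ATP7B start, which overlaps the first, held 3 GC boxes, 1 CCAAT box and 2 metal response element cores, and that of the third start held none of the 3 motifs. These matches describe the sequence and were not related to the measurements.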

How the data were processed

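Total RNA of 18 cultures was labelled with Cy3 and hybridised to one-colour Agilent human arrays, and the authors deposited each array's scanner output, read with Agilent Feature Extraction 10.7.3.1. The intensities used here, as deposited, are the mean spot signal and the median local background. In R 4.3.3, limma 3.58.1 corrected the background with normexp (offset 0), control spots were removed, arrays were quantile normalised, and outlier-flagged spots were left out, among them 8 spots of the genes described. Spots were averaged by probe, and the probe of highest mean stood for each gene name.

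As in the study's methods, empirical Bayes tests of a linear model were adjusted by the method of Benjamini and Yekutieli. Calls needed an adjusted p below 0.05 and a change over 1.2-fold, also as in the study. Fitting 1 model with 6 group terms over all 18 arrays, the 12 comparisons and the brightest probe per gene name were choices made here. The adjustment was over all gene names. The offset is not given in the sources used here, so 50 was an alternative, beside those in the closing section. A probe counted as well above background where 50% of its spots did. The procedure was tested on simulated data. The table of values of the whole series was not used.

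Named were the 8 genes, list genes called between the untreated lines or, elsewhere, the 2 largest rises and falls of each list among genes above background on all arrays compared, and the 3 gene names most correlated with each gene. Genes and lists were chosen with earlier results of these data known. Groups and replicate numbers came from the labels. Same-numbered arrays deviated together in every pair for OXA against untreated HT29 (correlations 0.333, 0.325 and 0.413) and for adding Curcumin in HT29 (0.127, 0.126 and 0.263), where the numbers were taken to pair the samples. In the other comparisons at least 1 pair was below 0.1, among them OXA plus Curcumin against untreated HT29 (0.103, 0.029 and 0.31). The labels state no pairing, and the same-numbered arrays of untreated and OXA-treated HT29 also shared a slide. An immune marker is not reported here, and the summed level leaves it out.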

Additional observations from a re-analysis of the deposited data

How the results depend on the processing

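Of 19 called differences none changed direction under any alternative. All 19 were kept with the normexp offset at 50, with the scanner's processed signal, with only gene names above background, and with the Benjamini-Hochberg adjustment. With arrays scaled to the 75th percentile 17 were kept, with all probes of a gene averaged 16, with the slide as a block 18, with the replicate block 17, and in 85 of 114 fits that left out 1 array. Fits of only the arrays compared, which have few degrees of freedom, kept 3: they called 0 genes between the untreated lines, for OXA in either line, for adding Curcumin in either line and between the lines under OXA, and 1 for OXA plus Curcumin against untreated in each line and between the lines under both. Over all gene names they called 1258 between the untreated lines, against 4177, and between 0.0442% and 8.32% of gene names in the 9 comparisons. The Benjamini-Hochberg adjustment called 4 of the 8 genes for OXA in HT29, 2 for adding Curcumin in HT29 and 2 in HTOXAR3, 4 for OXA plus Curcumin in HTOXAR3 and 5 between the lines under both. The shares of all gene names rose too, to 21.9%, 10.2%, 14.2%, 23.5% and 19.9% (from 15.9%, 5.53%, 8.83%, 17.5% and 13.9%). For adding Curcumin in HT29, scaling to the 75th percentile called 0 (5.08% of gene names) and averaging probes 2 (4.91%), and averaging probes called 1 for OXA plus Curcumin in HTOXAR3 (16.2%). Leaving out 1 array called 2 between the untreated lines (from 2 to 2), 1 to 2 for OXA in HTOXAR3 and 0 for adding Curcumin in HT29 (from 0 to 0). The shares of all gene names fell too, to between 9.16% and 9.79%, 7.23% and 7.90%, and 3.34% and 4.41% (from 11.5%, 10.2% and 5.53%). The replicate block gave 3 between the untreated lines, where ATOX1 was lost (adjusted p = 0.0737), 3 for OXA in HT29, and 1 for adding Curcumin in HT29, where ATP7A took the place of SLC31A2. Outside the HT29 comparisons where the numbers were taken to pair the samples, the arrays share only a number. With the block, 3 genes were called for OXA in HTOXAR3, 3 for OXA plus Curcumin in HT29, 2 in HTOXAR3, 3 between the lines under OXA and 4 under both. The shares of all gene names with the block, in the order of these 8 counts, were 11.5%, 16.0%, 5.19%, 10.3%, 18.8%, 17.5%, 13.9% and 13.9%. No difference in response between the lines was called under any alternative. The causes were not tested. SLC22A2, SLC22A3 and SLC47A1 lie near or below background, which limits what can be said of them.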
